A study of Mus musculus with 6 samples.

Results

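The 9 ligand genes Igf1, Hbegf, Areg, Ereg, Tgfa, Hgf, Pdgfa, Pdgfb and Pdgfc, whose protein products act on tumour cells and on the cells around them, were followed in tumour-associated macrophages. Igf1 encodes insulin-like growth factor 1 and Hgf hepatocyte growth factor. Hbegf, Areg, Ereg and Tgfa encode ligands of the epidermal growth factor receptor, and the 3 Pdgf genes encode chains of platelet-derived growth factors. They were taken by gene symbol, each from the brightest of its probe sets that carry that symbol alone in the platform annotation. Of the 9 genes, 8 were measured in this way among 19938 genes in all. Each of the 8 had 1 such probe set, and Areg was not analysed here.

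The macrophages were sorted by flow cytometry from hepa1-6 tumours growing in the liver of C57BL/6 mice. Hepa1-6 is a mouse hepatoma line. Treated mice received PLX3397, which blocks CSF1R (the receptor that macrophages need for survival) as well as KIT and FLT3, and control mice received vehicle, with 3 arrays in each group. All 6 samples shared strain, tumour line and implantation site. The dose, the length of treatment, the age of the mice, and whether a sample came from 1 animal or several were not found in the labels. The titles call the 3 samples of each group biological replicates, without saying which animals they came from. The p-values therefore reflect no more than the variation among these arrays. How much of that is variation between mice is not known. The description fields also carry a second name for each group, that of IL4-treated macrophages for PLX3397 and that of macrophages given LPS and interferon-gamma for vehicle. These names go against the titles and the treatment labels, and the groups here follow the titles.

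IGF1 signals through its receptor tyrosine kinase to growth and survival, and its binding proteins set how much of it is free. The ligands of the epidermal growth factor family are made as membrane-anchored precursors and are released by metalloproteinases. HGF is secreted as an inactive single chain that serine proteases cut, after which it acts on the receptor MET of epithelial cells. The platelet-derived growth factors act mainly on fibroblasts, pericytes and hepatic stellate cells. Macrophages are a known source of several of these ligands in wounds and tumours.

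The 8 transcripts did not move as a block. With PLX3397, Hbegf, Pdgfa, Hgf and Ereg rose by 1.36 to 2.68 on the log2 scale, Pdgfb rose slightly, Igf1 fell by 2.72, and Tgfa and Pdgfc did not pass the test. That is 5 genes higher and 1 lower of 8, where over all genes 37.8% passed, 19.6% as higher and 18.3% as lower. Among the 8, 4 rose and 1 fell by at least 1 log2, against 3.21% and 4.04% of all genes. The values of the 2 groups did not overlap for 6 of the 8 genes, against 49.3% of all genes. The genes were chosen with earlier results of these arrays known, so these counts describe them and are no test of the set.

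**Figure D1:**
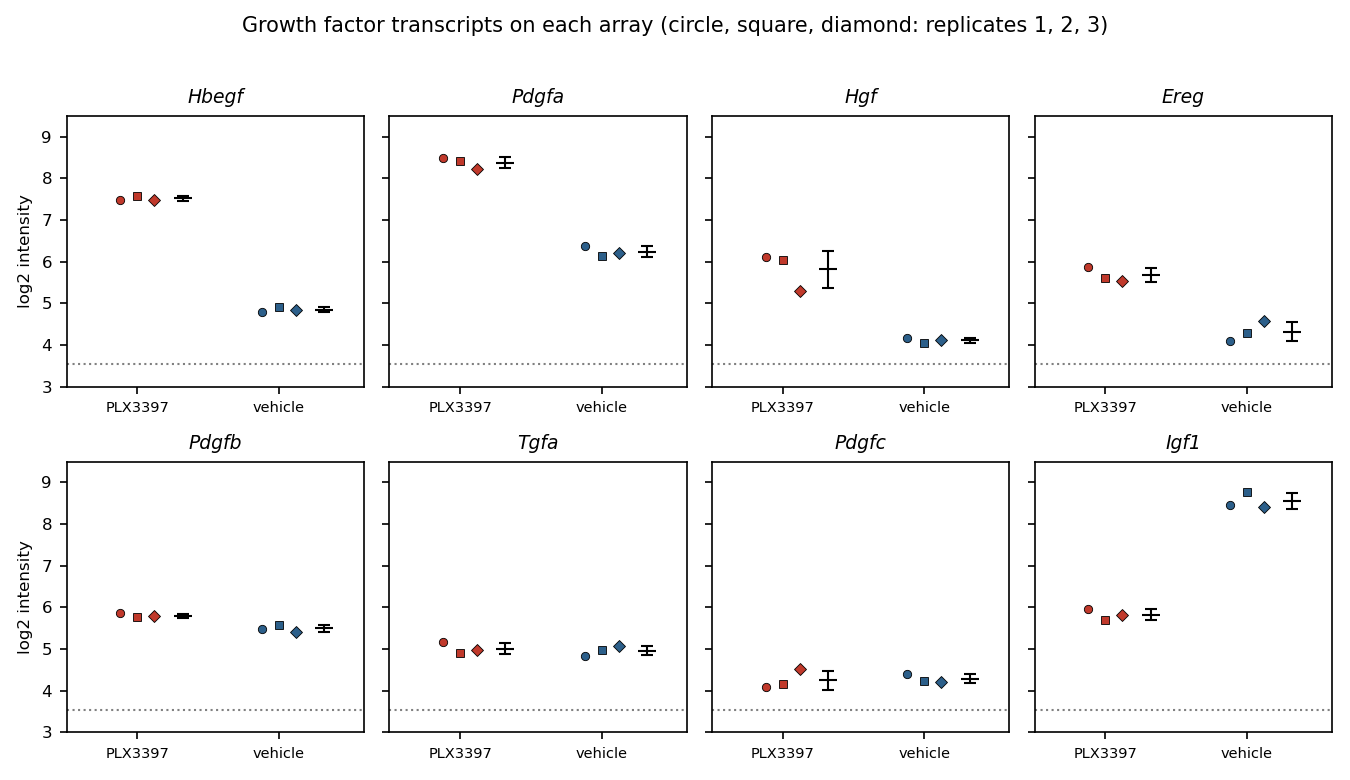
Log2 intensity (vertical axis) of the 8 measured growth factor genes on each array, with the 3 PLX3397 arrays left of the 3 vehicle arrays. Bars are means with SD, n = 3, and the dotted line is the mean background level of the arrays. Hbegf, Pdgfa, Hgf and Ereg lie higher on each PLX3397 array, Igf1 lies lower, and Tgfa and Pdgfc overlap between groups.

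All values are log2 intensities as deposited, and changes are PLX3397 minus vehicle with the standard error (SE) of a limma fit across all genes and a p-value adjusted over all genes. A gene passed where that p was under 0.05. Arrays do not allow the level of 1 gene to be set against that of another, so the change of each gene compares that gene only with itself. The marker sums and shares given below add probe set intensities, and they are not shares of transcripts or of cells. Genes of 1194 olfactory and vomeronasal receptors set a background level, their 95th percentile on each array, which lay between 3.52 and 3.58, and the 8 growth factor genes exceeded it on all 6 arrays. Of all 19938 genes, 5394 exceeded background on no array, and the shares given for all genes include them. With the fit limited to genes above background on all arrays of at least 1 group, 7423 of 13504 genes and 6 of the 8 growth factor genes passed. In RNA from a sorted population, fewer cells of a type and less RNA per cell cannot be told apart.

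The sorted cells carried macrophage transcripts on all arrays. All 8 genes of the macrophage list were above background on each array, but 2 of them rose, Itgam by 0.97 and Cd14 by 0.55, and 3 fell, Fcgr1 by 0.79, Adgre1 by 0.42 and Mertk by 0.37. Csf1r, Cd68 and Lyz2 did not pass. The hepatocyte and hepatoma genes did not pass the test, with a summed linear intensity of 126 to 153 with PLX3397 and 128 to 132 in vehicle. Of these, Alb, Ttr and Fgb were below background on all arrays, while Afp, Apoa2, Krt18 and Krt8 were above it on all 6. Lists of 6 other kinds of cell had higher sums on each PLX3397 array than on each vehicle array, and those of endothelial cells and platelets are given beside the Pdgf genes. The dendritic cell sum was 1802 to 2385 with PLX3397 and 279 to 320 in vehicle, with 3 of 7 genes higher and 0 lower. Itgax, which macrophages also express, made up 84.6% to 89.4% of it with PLX3397 and 72.7% to 76.1% in vehicle. The 3 that rose were Ccr7 (3.35, limma adjusted p = 7.76e-06), Itgax (3.04) and Zbtb46 (0.39). Xcr1 and Clec9a were below background on all arrays, and Ccr7, Zbtb46 and Flt3, the last of which did not pass, were above it on all 6. The T cell and innate lymphoid sum was 888 to 1020.4 with PLX3397 and 262 to 332 in vehicle, with 5 of 10 genes higher and 0 lower. Il7r made up 74.8% to 77.8% of it with PLX3397 and 49.6% to 59.2% in vehicle. The 5 that rose were Il7r (2.25), Lat (1.95), Gata3 (0.80), Icos (0.79) and Thy1 (0.46). Cd3d and Cd3g were below background on all arrays, and Cd3e, Cd4 and Foxp3 were above it on all 6 and did not pass. The sum for mast cells, basophils and eosinophils was 391 to 555 with PLX3397 and 167 to 191 in vehicle. In that list 4 of 11 genes rose, Hdc (3.59), Gata2 (3.22), Siglecf (0.44) and Prss34 (0.29), and Ccr3 fell by 2.25. Hdc made up 37.1% to 46.8% of the sum with PLX3397 and 6.45% to 14% in vehicle. Mcpt8, Cpa3, Fcer1a, Ms4a2 and Prg2 were below background on all arrays. The neutrophil sum was 4161 to 5895 with PLX3397 and 3456 to 3575 in vehicle, with 4 of 10 genes higher and 1 lower. The 4 were S100a8 (1.52), Mmp9 (0.62), Ly6g and Ltf, and Csf3r fell by 1.55. Ly6g and Ltf were below background on all arrays, as were Cxcr2, Retnlg and Ngp. Without the brightest gene, Mmp9, the neutrophil genes gave 589 to 995 with PLX3397 and 810 to 916 in vehicle. The groups thus overlapped in this sum, which was taken after the values were seen. It still held S100a8 and Csf3r, which moved in opposite directions. The other raised lists stayed separate when their brightest gene was left out in the same way. Dendritic cell genes then gave 191 to 367 with PLX3397 and 76 to 83 in vehicle. T cell and innate lymphoid genes gave 214 to 231 against 130 to 136. Mast cell, basophil and eosinophil genes gave 246 to 297 against 144 to 178. Gata2 was still in that sum, at 7.43 ± 0.24 with PLX3397 and 4.21 ± 0.35 in vehicle (SD, n = 3 each). A sum without Gata2 as well was not taken. Endothelial genes gave 201 to 220 against 109 to 116, and platelet genes 574 to 1011 against 134 to 176. PLX3397 replicate 3 correlated less with the other arrays of its group (Pearson r over genes of 0.992 for each) than they did with each other (0.9963), and without it the same 6 growth factor genes passed, with changes of 2.69 for Hbegf, 1.42 for Ereg, 1.96 for Hgf, 2.21 for Pdgfa, 0.32 for Pdgfb and -2.71 for Igf1. The part of the marker lists in the results that follow was not tested.

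The upstream sequences of 3 genes that moved are shown because they lie just before the transcription start of Igf1, the gene that fell, and of Pdgfa and Hgf, which rose. They are the 250 bases before the transcript start, from RefSeq on build GRCm38.p6, 5′ to 3′ on the strand of the gene, with matches to the motifs searched in capitals. Pdgfa and Hgf have 2 starts each in that table, and the more upstream one is shown.
Igf1, chr10:87860861-87861110, plus strand: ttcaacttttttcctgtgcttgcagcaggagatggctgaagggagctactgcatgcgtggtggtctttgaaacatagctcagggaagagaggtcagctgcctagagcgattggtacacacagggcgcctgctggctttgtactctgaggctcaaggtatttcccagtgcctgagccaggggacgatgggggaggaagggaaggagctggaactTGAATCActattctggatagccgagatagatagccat
Pdgfa, chr5:138994945-138995194, minus strand: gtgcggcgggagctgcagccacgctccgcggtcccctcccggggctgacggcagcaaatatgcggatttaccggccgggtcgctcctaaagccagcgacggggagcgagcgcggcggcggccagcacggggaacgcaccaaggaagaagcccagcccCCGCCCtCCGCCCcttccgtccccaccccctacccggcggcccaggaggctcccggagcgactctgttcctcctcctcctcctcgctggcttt
Hgf, chr5:16553245-16553494, plus strand: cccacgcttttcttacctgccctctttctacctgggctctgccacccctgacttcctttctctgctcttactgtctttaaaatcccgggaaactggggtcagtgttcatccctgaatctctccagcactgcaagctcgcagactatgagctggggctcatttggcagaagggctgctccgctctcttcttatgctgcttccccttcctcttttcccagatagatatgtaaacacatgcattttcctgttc

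The motifs were searched on both strands. AP-1 (TGANTCA) occurs in 6.75% of 32851 such windows, and the CRE core (TGACGT) in 6.47%. STAT5 (TTCNNNGAA) occurs in 7.02%, C/EBP (TTGCNNAA) in 9.56%, the GC box (GGGCGG) in 32.7% and the TATA box (TATAAA) in 12.4%. No match overlapped a match to another motif in the windows shown. The Igf1 window holds 1 match to the AP-1 pattern, TGAATCA, from 37 to 31 bases before the start. That pattern allows any base in the middle, which here is A. The Pdgfa window holds 2 GC boxes on the opposite strand, 93 to 88 and 86 to 81 bases before the start, and 72.4% of its bases are G or C. The Hgf window holds no match. These matches describe letters in a window and say nothing of whether a factor binds.

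Hbegf encodes heparin-binding EGF-like growth factor, a ligand of EGFR and ERBB4 that drives migration and proliferation of epithelial cells and fibroblasts. It was at 7.49, 7.58 and 7.49 on the PLX3397 arrays and at 4.78, 4.90 and 4.84 on the vehicle arrays. Each PLX3397 array was higher than each vehicle array, and the replicates of a group lay close together. The mean was 7.52 ± 0.06 with PLX3397 and 4.84 ± 0.06 in vehicle (SD, n = 3 each), a change of 2.68 (SE 0.08, limma adjusted p = 7.68e-09) or 6.40-fold. It was the 117th largest change upward of 19938 genes.

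Ereg encodes epiregulin, a ligand of EGFR and ERBB4 with a known part in tissue repair. Its values were 5.87, 5.61 and 5.54 with PLX3397 and 4.10, 4.28 and 4.56 in vehicle. The groups were separate, and the gap between the lowest PLX3397 array and the highest vehicle array was narrower than for Hbegf. The change was 1.36 (SE 0.13, limma adjusted p = 1.68e-05), or 2.56-fold.

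Tgfa, which encodes the EGFR ligand transforming growth factor alpha, was at 5.16, 4.90 and 4.98 with PLX3397 and at 4.84, 4.99 and 5.07 in vehicle. The groups overlapped. The difference was 0.05 with a 95% interval from -0.17 to 0.27 (limma adjusted p = 0.742). Changes within that interval remain compatible with these arrays. Among the other 7 ligands of the family, 3 rose and 0 fell, or 42.9% called, against 37.8% of all genes, with a median change of 0.17, against 0.04 over all genes. Nrg1, a neuregulin that binds ERBB3 and ERBB4, rose by 1.28 (SE 0.12, limma adjusted p = 2.01e-05), with 5.71 ± 0.22 in PLX3397 and 4.43 ± 0.17 in vehicle samples (SD, n = 3 each). Egf itself rose by 0.54 (limma adjusted p = 0.0112). Nrg4 also passed as higher (limma adjusted p = 0.0121, and 0.0520 with arrays centred on their medians), but it exceeded background on 1 PLX3397 array and on 0 vehicle arrays, so no fold is given. Nrg2 and Btc, the 2 brightest that did not pass, changed by 0.08 and -0.03.

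**Figure D2:**
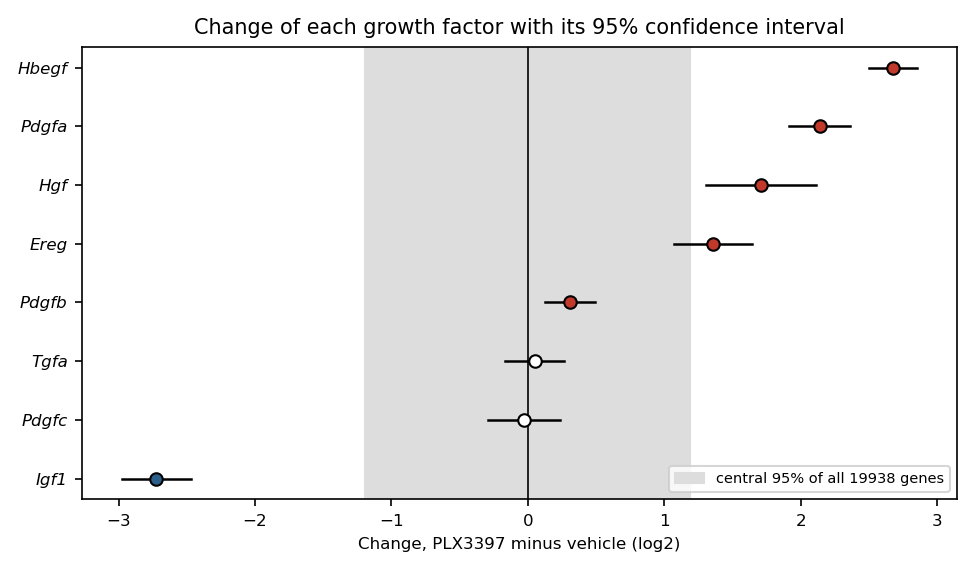
Change of each measured growth factor gene, PLX3397 minus vehicle on the log2 scale (horizontal axis), with its 95% confidence interval from limma. The grey band holds the central 95% of the changes of all genes, from -1.19 to 1.19. Hbegf, Pdgfa, Hgf and Ereg lie to the right of it and Igf1 to the left, while Pdgfb, Tgfa and Pdgfc lie inside.

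The genes for release of these ligands went both ways. Of 21 measured genes for ligand shedding and activation, 10 rose and 4 fell, or 66.7% called, against 37.8% of all genes, 19.6% as higher and 18.3% as lower. The median change was 0.26. Adam8, a metalloproteinase of myeloid cells, rose by 2.16 (SE 0.09, limma adjusted p = 8.17e-08), at 11.55 ± 0.13 with PLX3397 and 9.39 ± 0.09 in vehicle (SD, n = 3 each). Adam17 and Adam10 were singled out after their values were seen, as the main sheddases of EGF family ligands. Adam17 fell by 0.61 (SE 0.08, limma adjusted p = 2.19e-04) and Adam10 by 0.64 (SE 0.08, limma adjusted p = 8.38e-05). Adam9 and Adam19 also fell. Adam15 passed as higher, a call lost with arrays centred on their medians (adjusted p = 0.265) and in 5 of the fits that left out 1 array (each but that without PLX3397 replicate 3). Rhbdf2, which encodes a partner that ADAM17 needs to mature, was 0.29 higher and did not pass (limma adjusted p = 0.0510), but it passed under 7 alternatives, at adjusted p-values from 0.0158 to 0.0449. Cd9, also singled out after its values were seen, encodes a tetraspanin that associates with membrane-bound HBEGF and rose by 1.67 (SE 0.09, limma adjusted p = 3.15e-07).

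Of 11 genes for receptors of these ligands 3 rose and 0 fell, or 27.3% called, against 37.8% of all genes. Egfr rose by 0.37 (limma adjusted p = 0.00876), with 4.90 ± 0.07 in PLX3397 and 4.52 ± 0.13 in vehicle samples (SD, n = 3 each). It did not pass with quantile normalisation (adjusted p = 0.0541) or with arrays centred on their medians (adjusted p = 0.0733). Erbb4 was below background on all arrays.

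Igf1 encodes the hormone-like factor that macrophages secrete during tissue repair. It had 5.96, 5.71 and 5.81 with PLX3397, against 8.46, 8.77 and 8.41 in vehicle. Each PLX3397 array was lower than each vehicle array by over 2 log2. The mean was 5.83 ± 0.13 with PLX3397 and 8.55 ± 0.20 in vehicle (SD, n = 3 each), a change of -2.72 (SE 0.11, limma adjusted p = 6.66e-08), or 6.60-fold lower. It was the 24th largest fall of 19938 genes.

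Igf1r, the receptor tyrosine kinase that IGF1 binds, moved in the opposite direction. It was at 7.84, 7.94 and 7.63 with PLX3397 and at 5.80, 5.77 and 5.92 in vehicle. The groups were far apart, and the change was 1.98 (SE 0.10, limma adjusted p = 2.02e-07), or 3.94-fold. The insulin receptor gene Insr rose by 0.28 (limma adjusted p = 0.0374), a call lost with arrays centred on their medians (adjusted p = 0.269), with the replicate block (adjusted p = 0.0517), and without PLX3397 replicate 1 or 2 or vehicle replicate 1 or 2 (adjusted p from 0.0543 to 0.139). Igf2r, the scavenging receptor for IGF2, was 8.38 ± 0.06 with PLX3397 and 8.28 ± 0.03 in vehicle (SD, n = 3 each) and did not pass (limma adjusted p = 0.364).

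Of 13 genes for IGF binding proteins and their regulators 2 rose and 2 fell, or 30.8%, near the 37.8% of all genes, with a median change of 0.12. Igfbp5 was at 6.70, 6.16 and 6.43 with PLX3397 and at 4.40, 4.24 and 4.21 in vehicle. The groups were separate, with a change of 2.15 (SE 0.13, limma adjusted p = 7.94e-07). Igfbp4, an inhibitory binding protein, fell by 0.77 (SE 0.08, limma adjusted p = 3.64e-05), at 7.41 ± 0.01 with PLX3397 and 8.18 ± 0.10 in vehicle (SD, n = 3 each). The stanniocalcin genes Stc2 and Stc1, whose proteins inhibit the protease that cuts IGFBP4, moved apart, Stc2 rising by 1.03 and Stc1 falling by 0.62 (limma adjusted p = 6.63e-05 and 0.00555). Igfbp7, Igfbp2 and Igfbp6 changed by -0.04, 0.12 and 0.34 without passing, although Igfbp6 passed without PLX3397 replicate 1 or vehicle replicate 1 (adjusted p = 0.0253 and 0.0420).

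Hgf was at 6.11, 6.04 and 5.30 with PLX3397 and at 4.16, 4.05 and 4.12 in vehicle. The groups were separate, but PLX3397 replicate 3 lay below the other 2 of its group. The mean was 5.81 ± 0.45 with PLX3397 and 4.11 ± 0.05 in vehicle (SD, n = 3 each), a change of 1.71 (SE 0.18, limma adjusted p = 3.62e-05), or 3.26-fold. Stellate cells and fibroblasts are a known source of HGF in the liver. The summed intensity of 10 fibroblast and stellate cell genes was 551 to 1291 with PLX3397 and 531 to 758 in vehicle, and the groups overlapped. The 1291 was on PLX3397 replicate 3, the array with the lowest Hgf of its group, and replicates 1 and 2 had 551 and 769. Dcn made up 36.1% to 50.9% of the sum with PLX3397 and 22.7% to 36.7% in vehicle. Of these 10 genes 0 rose and 2 fell, Col1a1 and Col1a2, and Lrat was below background on all arrays. Dcn was 0.95 higher and did not pass (limma adjusted p = 0.0613). Their part in the Hgf result was not tested.

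Among the shedding and activation genes above are proteases that can activate HGF and inhibitors of them. Hgfac, Plau, St14 and the inhibitor gene Spint1 rose, Hpn and the inhibitor gene Spint2 did not pass, and Klkb1 had no probe set of its own. Hgfac, the HGF activator protease, was at 7.83, 7.92 and 7.69 with PLX3397 and at 4.20, 3.61 and 4.29 in vehicle. The vehicle values were near background, and the change of 3.78 (SE 0.16, limma adjusted p = 7.01e-08), or 13.7-fold, was larger than that of any of the 8 growth factor genes. Plau, the urokinase that can also cut pro-HGF, rose by 3.67 (SE 0.11, limma adjusted p = 7.46e-09) and St14, the membrane protease matriptase, by 2.28 (SE 0.11, limma adjusted p = 2.35e-07). Spint1, which encodes an inhibitor of HGFAC and matriptase, rose by 1.70 (SE 0.15, limma adjusted p = 1.15e-05), at 6.28 ± 0.25 with PLX3397 and 4.59 ± 0.26 in vehicle (SD, n = 3 each). The related inhibitor gene Spint2 and the protease gene Hpn changed by 0.13 and 0.24 and did not pass (limma adjusted p = 0.243 and 0.0626), though Hpn passed under 3 alternatives (adjusted p from 0.0294 to 0.0486).

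Met, the HGF receptor gene, was bright in both groups and did not pass. It was at 8.47, 8.57 and 8.29 with PLX3397 and at 8.48, 8.75 and 8.44 in vehicle, and the groups overlapped. The difference was -0.11 with a 95% interval from -0.35 to 0.13 (limma adjusted p = 0.472). Mst1, the gene of the related ligand macrophage-stimulating protein, rose by 0.31 (limma adjusted p = 0.0378), a call lost under 6 alternatives (adjusted p from 0.0728 to 0.217), among them quantile normalisation and the fits without PLX3397 replicate 1, 2 or 3 or vehicle replicate 2.

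**Figure D3:**
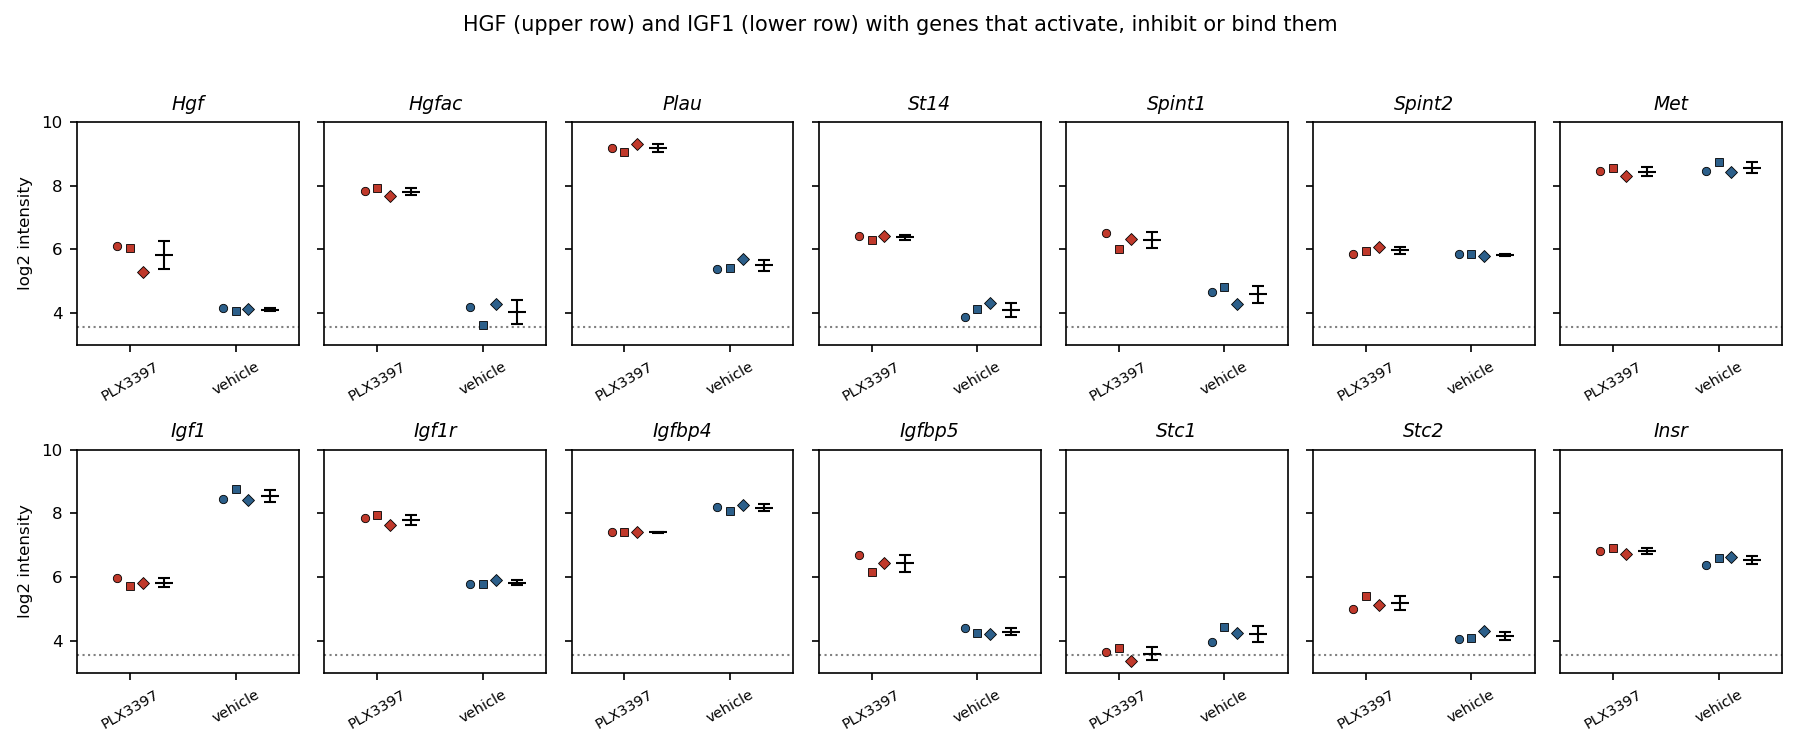
Log2 intensity (vertical axis) on each array of Hgf with genes for its activation, inhibition and receptor (upper row), and of Igf1 with its receptors, binding proteins and their regulators (lower row). PLX3397 arrays stand left of vehicle arrays, bars are means with SD, n = 3, and the dotted line is the mean background level. Hgf, Hgfac, Plau, St14 and Spint1 are higher on each PLX3397 array, while Igf1 is lower and Igf1r and Igfbp5 are higher.

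Pdgfa, whose protein binds PDGF receptor alpha, was at 8.49, 8.41 and 8.22 with PLX3397 and at 6.38, 6.13 and 6.19 in vehicle. Each PLX3397 array was higher than each vehicle array. The mean was 8.37 ± 0.14 with PLX3397 and 6.24 ± 0.13 in vehicle (SD, n = 3 each), a change of 2.14 (SE 0.10, limma adjusted p = 1.68e-07), or 4.40-fold.

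Pdgfb, whose protein binds both PDGF receptors and recruits pericytes, was at 5.86, 5.76 and 5.79 with PLX3397 and at 5.49, 5.58 and 5.41 in vehicle. The groups did not overlap, but the gap was small. The change was 0.31 (SE 0.08, limma adjusted p = 0.0132), or 1.24-fold. It did not pass with arrays centred on their medians (0.17, adjusted p = 0.133), without PLX3397 replicate 1 (0.28, adjusted p = 0.0510) or without vehicle replicate 3 (0.27, adjusted p = 0.0563).

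Pdgfc, which encodes a chain that must be cut before it binds its receptor, was at 4.08, 4.16 and 4.52 with PLX3397 and at 4.41, 4.24 and 4.20 in vehicle. The groups overlapped, and the difference was -0.03 with a 95% interval from -0.30 to 0.23 (limma adjusted p = 0.871). Furin, which encodes a convertase that cleaves the precursors of the A and B chains and of IGF1R, was at 10.12 ± 0.14 with PLX3397 and 8.12 ± 0.13 in vehicle (SD, n = 3 each), a rise of 1.99 (SE 0.10, limma adjusted p = 2.55e-07). Plat, the gene of a protease that activates PDGF-C, passed as higher but was not above background on any vehicle array. Pdgfd was below background on all arrays. Pdgfrb was 0.29 higher and did not pass (limma adjusted p = 0.0711, and 0.0221 without vehicle replicate 3).

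Platelets and endothelial cells are known sources of PDGF chains. The summed intensity of 4 measured platelet genes was 3287 to 4395 with PLX3397 and 2116 to 2219 in vehicle, with all 4 higher. These were Ppbp (2.52), Pf4 (0.54), Itga2b (0.51) and Gp9 (0.31), and Pf4 made up 77.0% to 82.5% of the sum with PLX3397 and 92.1% to 93.7% in vehicle. The sum of 8 endothelial genes was 449.7 to 466 with PLX3397 and 181 to 201 in vehicle. Of these, 4 rose, Kdr, Pecam1, Vwf and Cdh5, the other 4 did not pass, and Tek was below background on all arrays. The part of these cells in the PDGF results was not tested.

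**Figure D4:**
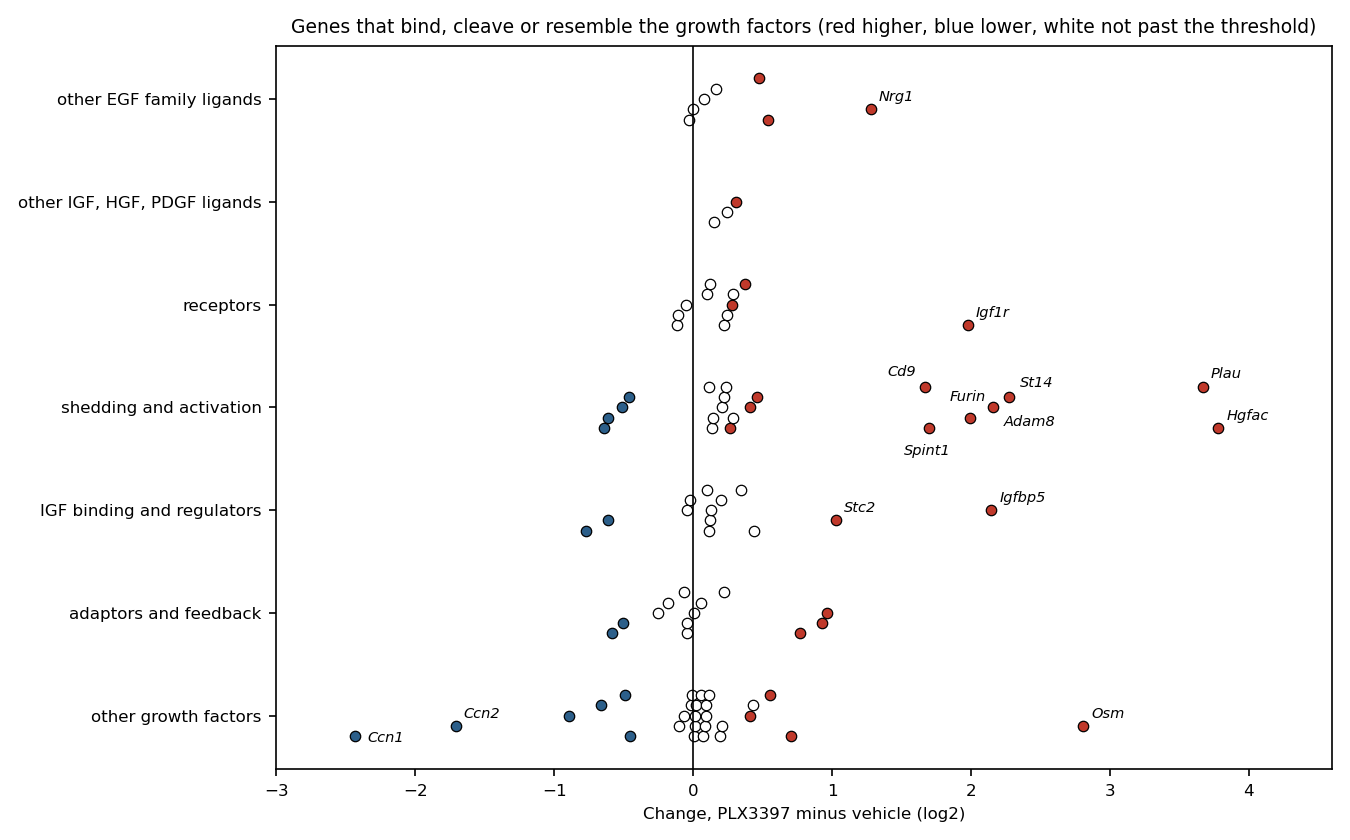
Change, PLX3397 minus vehicle on the log2 scale (horizontal axis), of each measured gene of 7 lists of genes related to the growth factors. Each point is 1 gene, red where higher, blue where lower and white where it did not pass, and called genes with a change of at least 1 log2 are named. Hgfac, Plau and Osm have the largest rises, and Ccn1 and Ccn2 the largest falls.

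Genes of receptor adaptors and feedback inhibitors were called about as often as genes overall. Of 13 genes 3 rose and 2 fell, or 38.5%, with a median change of -0.05. With the fit limited to genes above background on all arrays of at least 1 group, 5 of 11 passed, against 7423 of 13504 genes. The rises were those of the adaptor Shc1 (0.97, SE 0.09), of Errfi1, an inhibitor of EGFR that its signalling induces (0.93, SE 0.13), and of the insulin and IGF1 receptor substrate Irs2 (0.77, SE 0.12). The falls were those of the ubiquitin ligase Cblb (-0.58, SE 0.11) and the adaptor Gab2 (-0.50, SE 0.09). The 5 limma adjusted p-values ran from 1.65e-05 to 0.00154. With arrays centred on their medians, 7 of the 13 passed, 3 higher and 4 lower, against 7451 of 19938 genes. Gab1 and Cbl were the added falls (-0.38 and -0.31, limma adjusted p = 0.0243 and 0.0406). Gab1 also passed as lower without PLX3397 replicate 2 (-0.37, limma adjusted p = 0.0165).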

How the data were processed

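Affymetrix Mouse Gene 1.0 ST arrays measured total RNA of sorted macrophages, per the labels' protocols. The authors deposited 1 log2 value per probe set and array; the base was inferred from their range, 1.57 to 13.5. MAS5 is named, without a role, in the submitters' processing notes, and the summarisation and normalisation are otherwise not given in the sources used here. Array medians lay between 4.32 and 4.35 with PLX3397 and between 4.21 and 4.25 in vehicle, so values were used as deposited. Scanner files, and with them batches, were not used here.

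Of 28941 probe sets, 21789 carry 1 symbol in the platform annotation, 1621 several, and 5531 are unnamed here. The brightest probe set per symbol gave 19938 genes. A model with no term but group was fitted over all genes with limma 3.58.1 in R 4.3.3 (two-sided, moderated by eBayes), with Benjamini-Hochberg adjustment and a threshold of 0.05. An exact permutation test of 1 gene cannot go below 0.1 with 3 arrays against 3, the value it gave for the 6 growth factor genes that passed. The fit was tested on simulated data. The number of arrays limits the precision.

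The members and lists were chosen with earlier results of these data known. Of 99 genes on 7 related lists, 95 were measured, 2 of them (Ctgf and Cyr61, now Ccn2 and Ccn1) through their Entrez identifiers. The 8 measured members were described on each array. Every list gene past the threshold could be named, the 6 largest changes of a list and up to 3 of its brightest genes that did not pass with values. For the member with the largest rise and that with the largest fall, the 3 genes at the smallest root mean square distance over arrays were named. Genes named with values outside this rule, marker genes among them, were chosen after their values were seen. Alternatives covered scaling, filters on dim genes, a replicate block, variance settings, array weights, probe set means, other thresholds, and the removal of each array in turn. The plots were made with matplotlib 3.10.9.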

Additional observations from a re-analysis of the deposited data

Results flagged for a closer look

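Probe sets outside the gene-level comparison differed between groups. Each of 3 such probe sets carries several gene symbols, 1 of which is on a list used here, so its value cannot be given to 1 gene. The probe set that includes Tnfsf12 among its 3 symbols was 1.33 higher with PLX3397 on the log2 scale (limma adjusted p = 3.71e-06). The one that includes Erbb2 among its 2 symbols was 0.86 higher (limma adjusted p = 9.43e-05). The one that includes Klkb1 among its 2 symbols changed by -0.45 (limma adjusted p = 5.09e-04).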

How the results depend on the processing

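Igf1, Hbegf, Ereg, Hgf and Pdgfa kept their direction and passed under each of 15 alternatives, with changes from -2.86 to -2.61, 2.54 to 2.71, 1.22 to 1.48, 1.56 to 1.96 and 2.003 to 2.21. Tgfa and Pdgfc passed under none of them. Pdgfb did not pass with arrays centred on their medians (0.17), and its change ran from 0.27 to 0.35 as each array was left out, with the call lost without PLX3397 replicate 1 or vehicle replicate 3. Between 5 and 6 of the 8 members passed under every alternative. Centring in this way took the median change over all genes to -0.09, against 0.04 as deposited, and the share of calls that were higher to 30.6%, against 51.7%. With it 1 receptor gene passed, against 3. The single call among the other IGF, HGF and PDGF ligands was that of Mst1. It was lost (0 passed) with quantile normalisation, with centring and at an adjusted p under 0.01. As each array was left out, 0 to 1 of these ligand genes passed. Without PLX3397 replicate 1 that gene was Igf2 (0.33, limma adjusted p = 0.0215), while Mst1 did not pass (limma adjusted p = 0.0740). Igf2 was above background on no vehicle array. Among the other EGF family ligands 1 passed at an adjusted p under 0.01. With a change of at least 1 log2 also required, 1445 of the 7539 genes passed, 1 of the other EGF family ligands, 0 of the other IGF, HGF and PDGF ligands, 1 receptor gene, 7 shedding and activation genes, 2 IGF binding genes, 0 adaptor genes and 3 other growth factors. Same-numbered arrays did not deviate together (correlations -0.01, 0.01 and -0.01), and with the replicate block 7154 genes and 6 members passed. Changes near the background level of about 3.5 are the least certain.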

Other observations

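Of 27 other secreted growth factor genes that were measured, 4 rose and 6 fell, or 37.0% called, near the 37.8% of all genes, with a median change of 0.02. Osm, the IL6 family cytokine oncostatin M, rose by 2.81 (SE 0.09, limma adjusted p = 1.09e-08), at 8.19 ± 0.10 with PLX3397 and 5.38 ± 0.09 in vehicle (SD, n = 3 each). The matricellular genes Ccn1 and Ccn2 fell by 2.44 and 1.71 (SE 0.19 and 0.23, limma adjusted p = 5.34e-06 and 1.91e-04). Nampt, an enzyme that is also secreted, fell by 0.89, and Bmp4 rose by 0.71. Fgf7, a fibroblast-derived ligand of epithelial cells, passed as lower, by at least 1.02-fold with the vehicle mean set against the background level, since no PLX3397 array was above it. Hdgf, bright in both groups, changed by -0.01 and did not pass. Grn and Fgf13 also rose, and Gas6 and Pros1 fell, the Pros1 call being lost with quantile normalisation (adjusted p = 0.0802) and without vehicle replicate 1 (adjusted p = 0.0632).

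The genes whose profile over the 6 arrays lay closest to that of Hbegf, each centred on its own mean, were Osm, Clmp and Alox5ap, at root mean square distances of 0.09, 0.10 and 0.11 log2. Closest to Igf1 were Slamf7, Tlr1 and Lztfl1, at 0.11, 0.15 and 0.16 log2, with changes of -2.69, -2.54 and -2.51.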
